A study of Homo sapiens with 6 samples.

Results

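Glucose enters a colorectal cancer cell through facilitative transporters and is held there by hexokinases. The 10 genes described here cover that step: the transporters SLC2A1, SLC2A3, SLC2A4 and SLC2A12, the hexokinases HK1, HK2, HK3 and HKDC1, and the alpha-arrestins TXNIP and ARRDC4. They were taken by symbol from the 56638 symbols of the count files. All 10 were listed, and 9 passed the filter on low counts that left 23074 genes for the test. HK3 did not pass.

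Libraries whose titles name siRNA against the lncRNA AF339830, called GLCC1 in the study, were compared with libraries titled control siRNA, the nonspecific siRNA, with 3 libraries of each. The labels give the cells as SW480, an established human colorectal cancer line, whereas the methods of the study name DLD-1, another such line, and which is right was not tested. All 6 libraries are labelled as 1 line. The labels give no dose or time point and do not say whether the libraries of a group came from separate cultures, so the p-values measure only the spread between these libraries. The labels also disagree on the groups. The titles were followed here, but the library names join the control titles to AF123 and the GLCC1 titles to NC. The titles end in siRNA numbers that differ within a group, while the genotype field gives 1 siRNA number throughout each group. The title numbers were read here as replicates, and whether they stand for different siRNA sequences was not tested. If the library names were right, every direction below would be exchanged, and the members' median log2 fold change would be 0.17 in place of -0.17. No row carries the name GLCC1 or AF339830, so the target could not settle the labels. FARP1, the gene around the targeted locus, had a log2 fold change of -0.77 (SE 0.081, adjusted p = 9.21e-06, edgeR), and whether its count holds reads of GLCC1 was not tested.

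Between 11948790 and 19042516 reads were counted on genes per library. GLCC1 replicate 2 was the shallowest and stood apart from its group, with a chi-square per degree of freedom of 16.3 and 17.1 against the others of its group, where every other pair within a group gave 1.84 to 3.84. Reads on no annotated gene made up 9.82 to 10.15% of all tallies in control libraries and 10.96 to 12.7% in GLCC1 libraries. Of the 23074 genes tested, 31.6% were called at an adjusted p under 0.05 (edgeR quasi-likelihood test, Benjamini-Hochberg), 14.9% up and 16.7% down. Scaling by library totals alone gave a split of 4735 up and 2797 down, against 3429 up and 3864 down with TMM scaling. The median over all genes was 0.03 with TMM and 0.15 with library totals. Interferon response genes rose, 25 of 26, with a summed level of 1790 to 2147 CPM (counts scaled to library size) in control and 5260 to 6838 CPM in GLCC1 libraries. IRF9 was the exception (log2 fold change 0.31, adjusted p = 0.101). Colon epithelium markers fell in 7 of 10 cases, with KRT20, CDX2 and VIL1 not called. VIL1 was higher in every GLCC1 library than in any control library (log2 fold change 0.21, adjusted p = 0.0665, edgeR). The 10 markers went from a sum of 5681 to 6220 CPM in control to a sum of 2279 to 2721 CPM in GLCC1 libraries. Most of that sum was 3 keratins, KRT8, KRT18 and KRT19, which together went from 4660 to 5142 CPM in control to 1415 to 1823 CPM in GLCC1 libraries, while the other 7 markers summed to 1020 to 1078 CPM and 800.7 to 898 CPM. EPCAM, a surface adhesion protein of epithelia, was at 319 ± 8.46 CPM in control and 258.5 ± 44.7 CPM in GLCC1 libraries (SD, n = 3). Leukocyte markers summed to 4.18 to 5.72 CPM and 4.22 to 6.99 CPM, with PTPRC and S100A8 at 0 in all libraries. Muscle and adipose markers summed to 1.27 to 1.63 CPM and 0.954 to 2.35 CPM, with ADIPOQ, LEP and FABP4 at 0. The part of the interferon and epithelial shifts in the results below was not tested. In bulk RNA, fewer cells of a kind and less RNA per cell cannot be told apart.

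Glucose crosses the plasma membrane down its gradient through GLUT proteins. GLUT1, from SLC2A1, serves basal uptake in most cell types and is raised in many carcinomas, GLUT3, from SLC2A3, has a high affinity, GLUT4, from SLC2A4, answers to insulin in muscle and fat, and GLUT12 comes from SLC2A12. Hexokinases then add a phosphate that keeps glucose in the cell. HK1 is the broadly expressed form, HK2 the form typical of insulin-sensitive tissues and tumours, HK3 is found mainly in myeloid cells, and HKDC1 lies next to HK1. TXNIP and ARRDC4 are alpha-arrestins that lower glucose uptake, TXNIP by promoting the internalization of GLUT1. Both are classical targets of the glucose-sensing factors MondoA and ChREBP with their partner MLX, which bind pairs of E-box-like half-sites, and they respond to glucose 6-phosphate in many cells.

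The promoter windows below show the letters such factors are known for, and are printed for the members whose window held a match. RefSeq promoter windows (GRCh38.p14, 250 bases before to 50 after a start site) were found for 8 of the members, the exceptions being SLC2A3 and SLC2A4. A pair of patterns was searched on both strands, the E-box CACGTG and a pair of half-sites, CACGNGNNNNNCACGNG, in which a half-site can itself be an E-box. The E-box was present in 7.26% of all 35116 windows and the paired pattern in 0.057%. Counted by gene, with a match in any window, the shares were 8.77% and 0.0732% of 27305 genes. Capitals mark the matches, and positions count from the start site.
TXNIP, chr1:145996530-145996829, minus strand: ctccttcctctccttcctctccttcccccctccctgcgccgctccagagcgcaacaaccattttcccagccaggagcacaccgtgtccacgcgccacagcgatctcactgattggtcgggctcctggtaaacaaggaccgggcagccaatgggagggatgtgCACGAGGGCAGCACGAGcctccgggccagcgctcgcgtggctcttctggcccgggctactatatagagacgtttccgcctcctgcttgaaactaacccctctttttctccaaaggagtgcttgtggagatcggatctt
ARRDC4, chr15:97960453-97960752, plus strand: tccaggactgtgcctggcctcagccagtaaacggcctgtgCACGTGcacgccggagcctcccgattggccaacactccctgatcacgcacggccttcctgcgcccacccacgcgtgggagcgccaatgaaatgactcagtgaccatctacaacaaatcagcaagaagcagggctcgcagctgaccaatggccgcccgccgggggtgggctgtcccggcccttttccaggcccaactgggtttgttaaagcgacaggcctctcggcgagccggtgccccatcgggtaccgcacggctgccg
HK2, the second of 2 windows, chr2:74834920-74835219, plus strand: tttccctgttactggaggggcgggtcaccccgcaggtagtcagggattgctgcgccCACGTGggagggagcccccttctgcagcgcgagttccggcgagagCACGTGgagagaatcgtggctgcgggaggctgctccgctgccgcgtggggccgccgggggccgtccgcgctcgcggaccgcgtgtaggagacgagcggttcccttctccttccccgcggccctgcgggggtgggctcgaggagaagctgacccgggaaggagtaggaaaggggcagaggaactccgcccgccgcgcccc
The TXNIP window held the paired pattern, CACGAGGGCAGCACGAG, from -88 to -72. The ARRDC4 window held 1 E-box, from -210 to -205. The second HK2 window held 2, from -194 to -189 and from -149 to -144. These letters were not in the windows of SLC2A1, SLC2A12, HK1, HK3 and HKDC1, nor in the other windows of TXNIP and HK2. A match in letters is a description and not evidence of binding.

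In the GLCC1 libraries the main transporters and HK2 were lower and TXNIP was higher. SLC2A1 fell 1.84-fold, SLC2A3 1.51-fold and HK2 1.42-fold, whereas TXNIP rose 3.12-fold, HKDC1 2.51-fold and ARRDC4 1.30-fold. SLC2A4, SLC2A12 and HK1 were not called. Thus 6 of the 9 members tested were called (3 up, 3 down), where 31.6% of all genes were. Calls are more frequent among well expressed genes, and of genes averaging 10 CPM or more 49.9% were called. Of the 6 members at that level, 5 were called. The members were chosen with earlier results of these data known, so these shares are a description and not a test. The members' median log2 fold change was -0.17, against 0.03 over all genes tested. The same 6 members had CPM values that did not overlap between the groups, as did 46.3% of all genes tested. Together the 10 genes took 0.353 to 0.401% of the counts in control libraries and 0.237 to 0.273% in GLCC1 libraries. SLC2A1 made up most of these counts in every library, so this share mainly follows that gene. Without GLCC1 replicate 2, the library that stood apart, all 6 calls held, with log2 fold changes of -0.76 for SLC2A1, -0.64 for SLC2A3, -0.50 for HK2, 1.33 for HKDC1, 1.58 for TXNIP and 0.24 for ARRDC4.

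**Figure D1:**
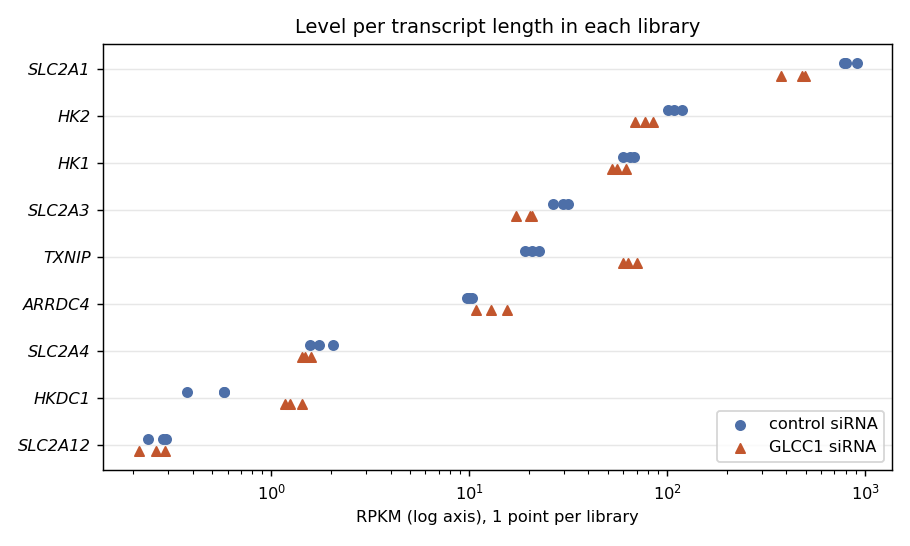
Level of each member per transcript length (RPKM, log axis) in every library, control siRNA as circles and GLCC1 siRNA as triangles. SLC2A1 is the top gene in both groups, TXNIP moves from 20.7 to 64.7 RPKM up to the level of HK1, and HK3, with 1 count in all, is not drawn.

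Levels can be compared between genes only per transcript length, and the following values are RPKM computed from the canonical transcripts. In control libraries SLC2A1 stood at 828 ± 68.0 RPKM (SD, n = 3). Then came HK2 at 109 ± 9.06, HK1 at 64.0 ± 4.25, SLC2A3 at 29.2 ± 2.70, TXNIP at 20.7 ± 1.70 and ARRDC4 at 9.99 ± 0.34 RPKM. SLC2A4 followed at 1.78 ± 0.24, HKDC1 at 0.51 ± 0.12 and SLC2A12 at 0.27 ± 0.029 RPKM. No neighbours in this order overlapped between libraries. In GLCC1 libraries SLC2A1 (451 ± 66.0 RPKM) was still the highest, but TXNIP (64.7 ± 5.35 RPKM) ranked between HK1 (56.8 ± 4.57 RPKM) and HK2 (76.8 ± 8.28 RPKM). Its range of 60.0 to 70.5 RPKM overlapped both HK1 (52.6 to 61.7 RPKM) and HK2 (68.4 to 84.9 RPKM), so TXNIP and its neighbours were not separated beyond their spread. HKDC1 (1.28 ± 0.13 RPKM) came close to SLC2A4 (1.495 ± 0.076 RPKM), and the remaining order was that of the control libraries.

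SLC2A1 lies on chr1:43391024-43424564 (minus strand; gene positions are in hg19, from GENCODE). It had 2639, 3065 and 2702 CPM in control replicates 1, 2 and 3, and 1688, 1271 and 1618 CPM in GLCC1 replicates 1, 2 and 3. Every GLCC1 library was below every control library, the shallow replicate 2 lowest. The means were 2802 ± 229.8 CPM and 1525 ± 223.4 CPM (SD, n = 3), a log2 fold change of -0.88 (SE 0.10, 95% interval -1.10 to -0.65, adjusted p = 2.86e-05, edgeR). Among the 10378 genes that averaged 10 CPM or more, it ranked 535th by its fall.

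SLC2A3 (chr12:8071826-8171603, minus strand) had 100.8, 121.3 and 113.2 CPM in the control libraries and 65.9, 79.1 and 77.3 CPM in the GLCC1 libraries. The groups did not overlap, and here GLCC1 replicate 1, not replicate 2, was lowest. The log2 fold change was -0.60 (SE 0.10, 95% interval -0.81 to -0.38, adjusted p = 4.92e-04, edgeR). SLC2A14, the near-identical copy of SLC2A3 that lies 28081 bp away on the same strand, went the other way at a very low level. Its counts were 3, 5 and 3 in control and 13, 12 and 15 in GLCC1 libraries (log2 fold change 1.83, SE 0.46, adjusted p = 0.00656, edgeR). Reads aligned to more than 1 place had a tally of their own, 10.83 to 12.44% of all tallies per library. Reads that fit both genes may therefore be missing from both counts, and both values are uncertain to that extent. SLC2A14 had under 1% of the counts of SLC2A3 in the control libraries.

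The ratio of SLC2A3 to SLC2A1 counts, in which library scaling cancels, was 0.0382, 0.0396 and 0.0419 in control and 0.0390, 0.0623 and 0.0478 in GLCC1 libraries. The ranges overlapped at GLCC1 replicate 1. The mean log2 ratio was 0.29 higher in the GLCC1 libraries (exact permutation test, two-sided, p = 0.3, 0.3 after adjustment over 2 ratios), where 3 against 3 libraries cannot give a p below 0.1. Without GLCC1 replicate 2 the difference was 0.12.

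The remaining transporters among the members were low. SLC2A4 (chr17:7185037-7191576, plus strand) had 5.28, 6.89 and 5.84 CPM in control and 5.32, 5.01 and 4.81 CPM in GLCC1 libraries, and the ranges overlapped. Its log2 fold change was -0.25 (95% interval -0.59 to 0.08, adjusted p = 0.242, edgeR), and was -0.14 without control replicate 2 and -0.13 with library totals. SLC2A12 (chr6:134308719-134373762, minus strand) had 1.58, 1.32 and 1.63 CPM in control and 1.62, 1.19 and 1.45 CPM in GLCC1 libraries. Its log2 fold change of -0.06 (95% interval -0.62 to 0.50, adjusted p = 0.88) rested on 15 to 31 counts per library, and its sign turned with library totals (0.06) and without GLCC1 replicate 2 (0.04). At this depth the interval still allows a change of SLC2A12 in either direction.

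**Figure D2:**
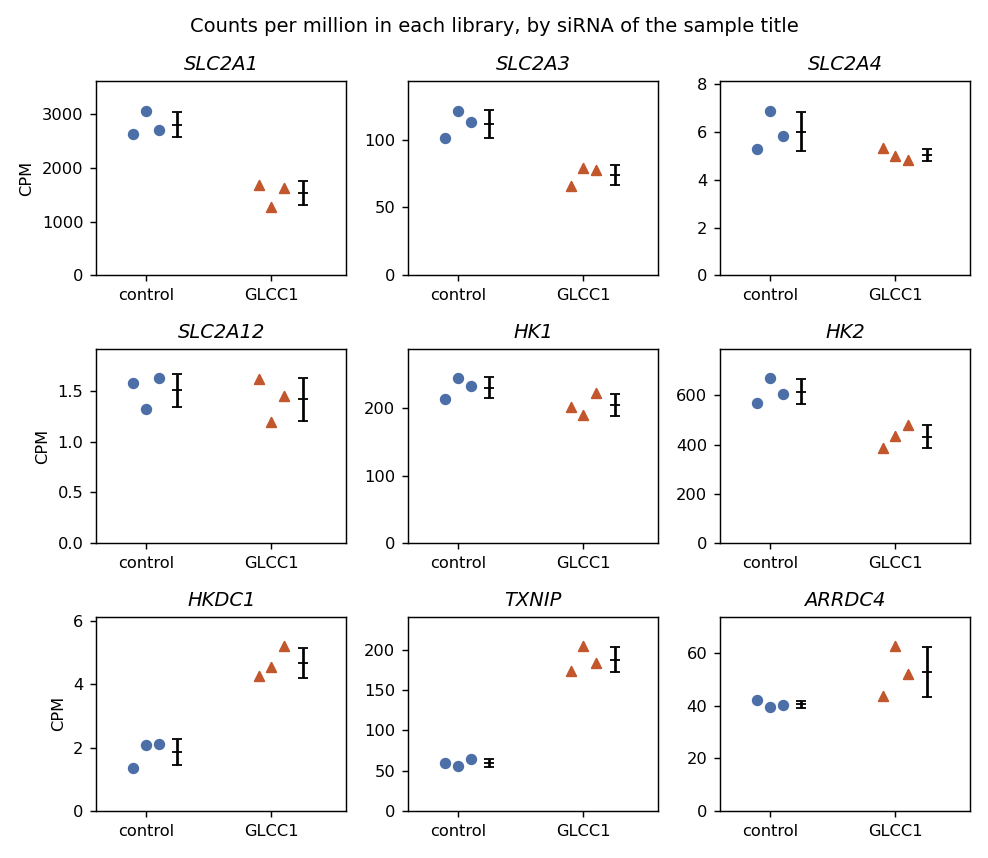
CPM (linear axes from 0) of the 9 members tested in each library, control siRNA as circles and GLCC1 siRNA as triangles, left to right replicates 1, 2 and 3, with the mean and SD beside them. SLC2A1, SLC2A3 and HK2 are lower in every GLCC1 library, HKDC1, TXNIP and ARRDC4 higher in every one, and SLC2A4, SLC2A12 and HK1 overlap.

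HK2, on chr2:75061254-75120486 (plus strand), was the hexokinase that fell. It had 567, 668 and 607 CPM in control and 385, 434 and 478 CPM in GLCC1 libraries, with no overlap. The means were 613.7 ± 51.0 CPM and 432.2 ± 46.6 CPM (SD, n = 3), and the log2 fold change was -0.51 (SE 0.094, 95% interval -0.71 to -0.30, adjusted p = 0.00103, edgeR). Its pseudogene HK2P1 had 200, 295 and 269 counts in control and 164, 169 and 215 in GLCC1 libraries, with a log2 fold change of -0.46 (adjusted p = 0.0391, edgeR). That call was lost with DESeq2 (adjusted p = 0.0591), with library totals (0.115), with at least 10 counts in every library (0.0566) and without control replicate 2 (0.142), control replicate 3 (0.138) or GLCC1 replicate 1 (0.168, with a log2 fold change of -0.28). How many reads fit both HK2 and HK2P1, and so may be missing from both counts, was not tested.

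HK1 (chr10:71029740-71161640, plus strand) had 214, 244 and 233 CPM in control and 202, 190 and 222 CPM in GLCC1 libraries. The ranges overlapped, and the log2 fold change was -0.17 (SE 0.087, 95% interval -0.36 to 0.01, adjusted p = 0.153, edgeR), or -0.051 with library totals. HK2 outnumbered HK1 in every library, with HK2 to HK1 count ratios of 2.65, 2.73 and 2.60 in control and 1.91, 2.29 and 2.15 in GLCC1 libraries. The ratio was below every control value in all 3 GLCC1 libraries. The means were 2.66 ± 0.069 and 2.12 ± 0.19 (SD, n = 3), and the mean log2 ratio differed by -0.33 (exact permutation test, two-sided, p = 0.1, the smallest this design allows, 0.2 after adjustment over 2 ratios).

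**Figure D3:**
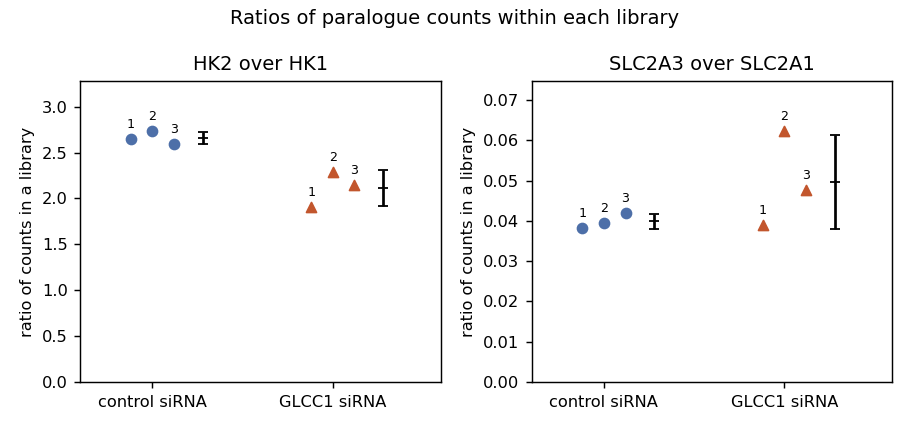
Ratio of counts of HK2 over HK1 and of SLC2A3 over SLC2A1 within each library (axes from 0), numbers marking replicates, with mean and SD beside the points. HK2 over HK1 falls from 2.60 to 2.73 in control to 1.91 to 2.29 in GLCC1 libraries without overlap, while SLC2A3 over SLC2A1 overlaps, with GLCC1 replicate 2 at 0.0623.

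HKDC1, a hexokinase-domain gene that ends 2431 bp before HK1 on the same strand (chr10:70980088-71027308), moved opposite to HK2. It had 1.37, 2.09 and 2.11 CPM in control and 4.28, 4.53 and 5.20 CPM in GLCC1 libraries, from 20, 38 and 35 counts and 82, 57 and 93 counts. All GLCC1 libraries were above all control libraries. The log2 fold change was 1.31 (SE 0.21, 95% interval 0.87 to 1.76, adjusted p = 2.91e-04, edgeR). Per length it stayed far below HK1 and HK2, at 1.28 RPKM in the GLCC1 libraries. HK3 (chr5:176307870-176326347, minus strand) had 1 count in control replicate 1 and 0 in the other 5 libraries. A count of 0 allows up to 3 counts, or 0.156 to 0.239 CPM depending on the library, so HK3 was not detectable at this depth beyond that single count.

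TXNIP showed the steepest change of the members. The gene, on chr1:145438490-145442635 (plus strand in hg19), had 59.9, 55.1 and 64.9 CPM in control and 174, 204 and 184 CPM in GLCC1 libraries. The lowest GLCC1 library was far above the highest control library, and the spread within each group was small. The means were 59.96 ± 4.91 CPM and 187.2 ± 15.5 CPM (SD, n = 3), a log2 fold change of 1.64 (SE 0.096, 95% interval 1.44 to 1.85, adjusted p = 7.85e-08, edgeR). TXNIP ranked 47th by its rise among the 10378 genes that averaged 10 CPM or more.

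ARRDC4 (chr15:98503933-98517063, plus strand), whose window holds the E-box printed above, rose less. It had 42.1, 39.4 and 40.3 CPM in control and 43.9, 62.7 and 52.0 CPM in GLCC1 libraries. The groups did not overlap, but GLCC1 replicate 1 lay barely above control replicate 1, and replicate 2, which stands apart, was highest. The log2 fold change was 0.38 (SE 0.12, 95% interval 0.12 to 0.63, adjusted p = 0.0273, edgeR). The call was lost without control replicate 1 (adjusted p = 0.0649), control replicate 2 (0.11) or control replicate 3 (0.0987). Without GLCC1 replicate 2 the change was 0.24 (adjusted p = 0.00407).

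**Figure D4:**
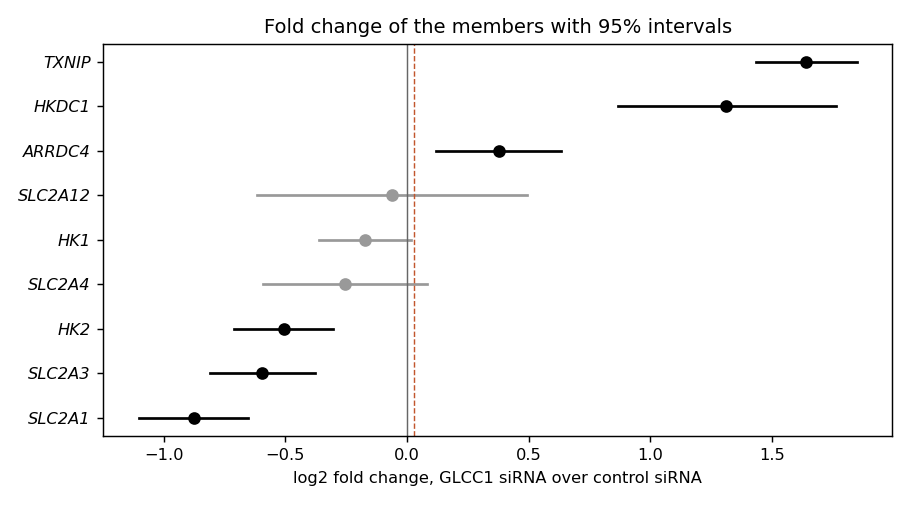
Fitted log2 fold change (GLCC1 siRNA over control siRNA) of the 9 members tested with 95% intervals, black where called and grey where not, the dashed line being the median of 0.03 over all genes tested. SLC2A1 at -0.88 and TXNIP at 1.64 are the ends of the range.

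Several members overlap exons of other genes on the opposite strand: SLC2A1 with ENSG00000288955, SLC2A4 with ENSG00000263342, SLC2A12 with TBPL1, HK1 with RPS15AP28, HK3 with UNC5A and HKDC1 with ENSG00000231748. The strand setting of the counting is not given in the sources used here, so reads from such pairs cannot be told apart. SLC2A1-AS1, listed as an antisense gene of SLC2A1, had 101, 179 and 161 counts in control and 154, 136 and 183 in GLCC1 libraries (log2 fold change 0.12, adjusted p = 0.624, edgeR), and it ranged from -0.02 without control replicate 1 to 0.25 without GLCC1 replicate 1. The copies SLC2A3P1, SLC2A3P2 and SLC2A13P1 had no count, and SLC2A3P4 had 2 in all, both in control libraries.

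The genes around this step were read from lists of the same pathway. For comparison, 31.6% of all genes tested were called, and 49.9% of those averaging 10 CPM or more. Among other sugar transporters, 12 of 14 were tested, 3 rose and 1 fell. SLC2A6, a lysosomal hexose transporter also known as GLUT6, fell from 14.2 ± 0.94 to 6.57 ± 1.27 CPM (SD, n = 3), a log2 fold change of -1.10 (adjusted p = 7.37e-05). SLC2A11 (0.39, adjusted p = 0.0141), SLC2A10 (0.30, adjusted p = 0.043) and SLC2A14, described above, rose. Only 2 of the list were called without control replicate 1, control replicate 3 or GLCC1 replicate 1, where SLC2A10 and SLC2A11 were lost, and SLC2A10 was also lost with DESeq2 (adjusted p = 0.0531), with the lowest count filter (0.0535) and without control replicate 2 (0.115). SLC2A2 and SLC2A5, transporters typical of liver and of fructose uptake, had 1 count each in all libraries and were not tested.

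Among other sugar kinases and glucose 6-phosphate phosphatases, 10 of 12 were tested, 2 rose and 4 fell, with a median log2 fold change of -0.38. G6PC3, the broadly expressed phosphatase that releases glucose from glucose 6-phosphate, fell from 57.4 ± 1.502 to 22.7 ± 5.76 CPM (log2 fold change -1.32, adjusted p = 1.54e-05). Of the other phosphatase genes in the list, G6PC had no count in any library and G6PC2, with 1 count in control and 3 in GLCC1 libraries, was not tested. SLC37A4, which carries glucose 6-phosphate into the endoplasmic reticulum, fell as well (-0.39, adjusted p = 0.00972), although not with library totals (adjusted p = 0.0568). KHK, which phosphorylates fructose (-0.63, adjusted p = 0.00218), and NAGK, which phosphorylates N-acetylglucosamine (-0.56, adjusted p = 7.06e-04), fell. AKR1B1, the aldose reductase that turns glucose into sorbitol, rose from 1.90 ± 0.20 to 5.70 ± 0.63 CPM (1.57, adjusted p = 2.65e-05). GCKR, the regulator of glucokinase, rose (1.02, adjusted p = 0.0184), but not without control replicate 3 (adjusted p = 0.0947) or GLCC1 replicate 1 (0.0597).

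Among alpha-arrestins and the thioredoxin system, which TXNIP binds, 1 of 8 rose and 5 fell, against 2 and 4 with library totals. ARRDC3, a paralogue of TXNIP and ARRDC4, rose from 38.4 ± 1.61 to 67.6 ± 12.3 CPM (0.81, adjusted p = 1.73e-04), whereas ARRDC1 fell (-0.77, adjusted p = 8.5e-04). TXN, the cytosolic thioredoxin, fell from 368.7 ± 11.2 to 170.6 ± 13.7 CPM (-1.11, adjusted p = 5.63e-07), the opposite direction to its interactor TXNIP. The mitochondrial thioredoxin TXN2 (-0.43, adjusted p = 0.00335) and the reductases TXNRD2 (-0.56, adjusted p = 0.00165) and TXNRD1 (-0.24, adjusted p = 0.0234, named after its value was seen) fell too. The TXNRD1 call was lost with library totals (-0.12, adjusted p = 0.261) and without any library other than GLCC1 replicate 2 (0.067 to 0.098).

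Of the 10 genes listed for the sorting of GLUT1 and GLUT4, 5 fell and 1 rose, but 3 fell and 3 rose with library totals. The list mixes genes that bring transporters to the surface with genes that hold them back, so these counts give no direction of delivery. TBC1D1, a GTPase-activating protein that holds back GLUT4 vesicles, fell most (-1.03, adjusted p = 1.16e-06). VPS35, a core retromer subunit (-0.71, adjusted p = 2.56e-05), and GIPC1, an adaptor that binds GLUT1 (-0.71, adjusted p = 6.05e-04), fell. SNX27, the sorting nexin that takes GLUT1 to retromer, fell as well (-0.26, adjusted p = 0.0419, named after its value was seen), but the call was lost with library totals (-0.14, adjusted p = 0.282), with DESeq2 (0.0588), with its size factors in edgeR (0.0574), with at least 10 counts in every library (0.0617) and without any library other than GLCC1 replicate 2 (0.099 to 0.152). VPS26B, another retromer subunit, rose (0.33, adjusted p = 0.00932), and TBC1D4, the paralogue of TBC1D1, fell (-0.34, adjusted p = 0.0148). Without control replicate 1 only 3 of this list were called, VPS26B (adjusted p = 0.0548), TBC1D4 (0.0631) and SNX27 being lost. TBC1D4 was lost too with library totals (-0.22, adjusted p = 0.106) and without control replicate 3 (0.0911), GLCC1 replicate 1 (0.0686) or GLCC1 replicate 3 (0.0548).

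Hexokinases dock on the mitochondrial channel VDAC, and of the 8 genes listed for that docking 5 fell and 2 rose. The channels VDAC1 (-0.56, adjusted p = 7.88e-05), VDAC2 (-0.52, adjusted p = 0.00651) and VDAC3 (-0.35, adjusted p = 0.0055, named after its value was seen) fell, as did TSPO, a partner of VDAC in the outer membrane (-0.50, adjusted p = 0.00912). VDAC3 was lost with library totals (-0.23, adjusted p = 0.0607). The kinases split: AKT1 (0.48, adjusted p = 0.00317) and GSK3B (0.47, adjusted p = 7.58e-04) rose and GSK3A (-0.48, adjusted p = 0.0141) fell. GSK3A was lost without control replicate 2 (adjusted p = 0.0761) or control replicate 3 (0.0512). Downstream of hexokinase, 3 of 9 genes of upper glycolysis fell. None rose in this fit, but 1 did with library totals, with at least 1 count in any library and without GLCC1 replicate 2, beside 2, 3 and 3 that fell. Those that fell were PFKFB3 (58.8 ± 2.47 to 34.6 ± 2.71 CPM, -0.76, adjusted p = 4.03e-05) and PFKFB4 (-0.44, adjusted p = 0.00421), which make the activator of phosphofructokinase, and GPI, the isomerase that takes glucose 6-phosphate (-0.37, adjusted p = 0.0188). GPI was lost with library totals (adjusted p = 0.0837) and without control replicate 2 (0.116).

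**Figure D5:**
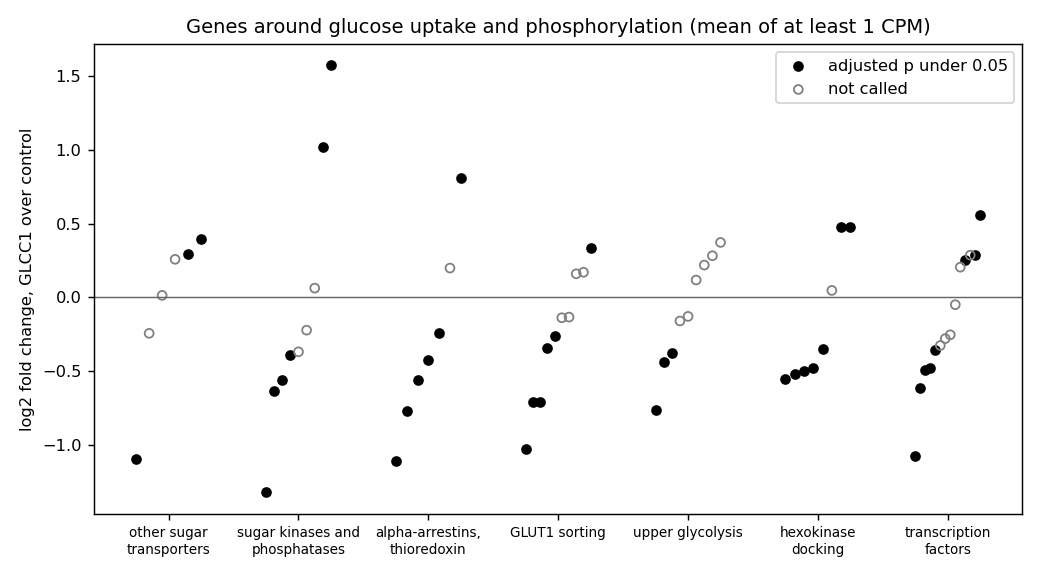
Fitted log2 fold change (GLCC1 siRNA over control siRNA) of each gene in 7 lists around glucose uptake and phosphorylation, filled where called and open where not, for genes averaging 1 CPM or more. The ends of the range are G6PC3 at -1.32 and AKR1B1 at 1.57, and in this fit no called gene of upper glycolysis lies above 0.

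Among 14 transcription factors known to act on the members, 5 fell and 3 rose. With library totals the split was 4 down and 5 up. MLX, the binding partner of MondoA and ChREBP, fell (-0.49, adjusted p = 5.49e-04). MondoA, from MLXIP, had a log2 fold change of -0.28 (adjusted p = 0.0669) and ChREBP, from MLXIPL, one of -0.33 (adjusted p = 0.057), neither called. MYC, an activator of SLC2A1 and HK2, fell from 148.8 ± 7.76 to 106.4 ± 15.4 CPM (-0.48, adjusted p = 0.00302), and so did the MYC antagonists MXD1 (-1.08, adjusted p = 3.18e-05) and MXD4 (-0.36, adjusted p = 0.0359, named after its value was seen). MXD4 was lost with library totals (-0.23, adjusted p = 0.146) and without any control library (0.0609 to 0.152) or GLCC1 replicate 3 (0.0787). KLF6, a zinc-finger factor, fell (-0.62, adjusted p = 9.11e-05). FOXO1, a forkhead factor restrained by insulin, rose (0.56, adjusted p = 2.14e-04), as did the hypoxia factors HIF1A (0.29, adjusted p = 0.0224) and ARNT (0.25, adjusted p = 0.0375). HIF1A was lost without control replicate 1 (adjusted p = 0.0902), control replicate 2 (0.127) or GLCC1 replicate 1 (0.0628). ARNT was lost with the lowest count filter (adjusted p = 0.06), and without any library other than GLCC1 replicate 2 (0.0602 to 0.172). The list had 5 calls without control replicate 1 or control replicate 2 and 13 without GLCC1 replicate 2, so its count depended on single libraries. None of the called genes named from these lists lost its call without GLCC1 replicate 2.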

How the data were processed

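The authors mapped paired-end reads with TopHat2 2.0.11 to hg19 and deposited raw counts per gene from HTSeq, 1 table per library, with no normalization. Rows that tally unassigned reads were left out of library sizes and tests. Samples were grouped by title. Genes with at least 5 summed counts in either group were tested with edgeR 4.0.16 (TMM, robust quasi-likelihood fit and test, R 4.3.3), with Benjamini-Hochberg adjustment and a threshold of 0.05. The standard error is the fitted coefficient over the square root of F. CPM used the TMM sizes, and RPKM also the canonical transcript lengths of GENCODE 44 lifted to hg19. Tests were checked on simulated data of 22220 genes, with 100 changed by a log2 size of 1 and 100 by 2. There edgeR recovered 93 and 97 of them and called 3 unchanged genes. So few changed genes, as many up as down, could not test the scaling or a library that stands apart. DESeq2 1.42.0, other scalings, filters, left-out libraries and a replicate block were tried. Floors cover counting error only. Depth was 11948790 to 19042516 counts per library.

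The members and lists were chosen with earlier results of these data known. Genes named from a list were those called with a mean of at least 1 CPM, at most 4 in each direction by size of change, beside copies and antisense genes of the members, the gene around the targeted locus, and marker lists as counts.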

Additional observations from a re-analysis of the deposited data

How the results depend on the processing

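Of the 9 members tested, 6 were called under every scaling, filter and tool tried, and 5 when a control library was left out, ARRDC4 being the one lost. The members' median log2 fold change was -0.17, moved to -0.051 with library totals, and turned to 0.17 under the library names, which exchange the groups. With single libraries left out it ranged from -0.22 to -0.12. Calls over all genes were 7293, and ranged from 5221 to 9920 with single libraries left out, the highest without GLCC1 replicate 2. They were 7532 with library totals, 7285 with DESeq2 size factors, 6484 with DESeq2, 7857 with at least 1 count in any library and 6853 with at least 10 counts in every library. SLC2A12, not called, turned to 0.060 with library totals and ranged from -0.16 to 0.039 with single libraries left out, and SLC2A1-AS1 ranged from -0.022 to 0.25. Of 108 refits of members, 103 kept direction and call, and of 515 refits of other named genes 451 did, 63 losing the call. These alternatives for the lists were added after seeing the data. No pairing by replicate number was seen. Deviations of same-numbered libraries correlated at -0.133, -0.25 and -0.0026 across 14875 genes, and 0 of 3 numbers matched best with their own. Deviations were taken from the mean of each group, so these correlations depend on each other and cannot exclude pairing. A replicate block gave 6522 calls and 6 members, and SLC2A10 (adjusted p = 0.102), HIF1A (0.0644), ARNT (0.115), TXNRD1 (0.0673) and SNX27 (0.101) were not called with it. Depth limits SLC2A12, SLC2A14, HKDC1, HK3 and GCKR, all under 100 counts per library. Counts were also low for AKR1B1, with 28, 38 and 28 in control libraries, and for SLC2A4, with 63 to 125 per library.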
